A study of Mus musculus with 24 samples.

Results

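The genes described here are 43 mouse genes that mark injured or incompletely repaired kidney tubule. They were listed by name, and every one was found among the 21883 protein-coding genes of the mm10 RefSeq table on chromosomes 1 to 19, X and Y. For each gene the peaks of Sox9 and of H3K4me3 were counted whose summit lay within 1000 bp of either gene end, and also whose summit lay in the gene body or in the 10000 bp on each side of it, called the body window here. The list held 10 injury markers and secreted proteins, 5 keratins, 3 surface proteins of progenitor-like tubule cells, 9 cytoskeletal, annexin and S100 genes, 3 integrins, 4 proteases, inhibitors and their receptors, 5 genes of growth factor ligands and a receptor, 2 Hippo targets and 2 transcription factors. The rule uses no measured value. Median gene length was 13066 bp for the 43 genes and 17170 bp for all genes, and since long genes collect more peaks, each gene was set beside the 200 protein-coding genes closest to it in length.

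After ischaemia the proximal tubule loses its transport programme, and surviving cells switch on genes such as Havcr1 (KIM-1, a phagocytic receptor) and Lcn2 (NGAL, an iron-carrier protein). Most of these cells redifferentiate, while some keep an injured state marked by Vcam1, keratins, integrins and secreted factors, a state often called failed repair. Sox9 is a transcription factor that is turned on in injured tubule cells and binds DNA through an HMG box, and trimethylation of lysine 4 of histone H3 (H3K4me3) marks the promoters of genes in use.

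The cells were sorted from kidneys of male Sox9IRES-CreERT2/+:R26RtdT/+ mice aged 9 to 12 weeks, in which tamoxifen given at bilateral ischaemia-reperfusion injury makes cells with Sox9 activity, and all their descendants, express tdTomato. The groups were 10 d after injury and 48 h after injury, with 4 libraries labelled as biological replicates at each time for the Sox9 antibody and 4 for the H3K4me3 antibody, so every group carried the same alleles, injury and tamoxifen, and no uninjured group was used here. Times are those in the titles; the label for cell type reads day 10 throughout, also for libraries titled 48 h. The Sox9 locus drives the tamoxifen-dependent Cre and tdTomato stays on from the Rosa26 locus after recombination, so a red cell need not contain Sox9 when it is sorted, and cells of several types in cortex and outer medulla could be labelled. Pellets of about 100000 cells were fixed with 0.2% PFA and divided into 3 aliquots, for Sox9, H3K4me3 and an input.

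Between 7724 and 85420 peaks were listed for each Sox9 library and between 25824 and 88511 for each H3K4me3 library, and depth is unknown. The shortest Sox9 list put a peak in the body window of 20.8% of all genes and the longest in 77.8%. Peak height is given in steps, the list-specific unit of pileup found from the deposited fold and p-value, and 92.5% to 97.9% of the peaks of a list stood at exactly 1 step, the lowest height listed. H3K4me3 10d replicate 1 stood apart: in that library 39.9% of length-matched genes had a peak at an end, against 11.6% to 28.3% in the other 7 H3K4me3 libraries. As a check of the labelled tissue and mark, 14 housekeeping genes had an H3K4me3 peak at an end in 26.8% of gene and library pairs and 18 differentiated proximal tubule genes in 16%, against 17.3% over all genes. For Sox9 the same lists stood at 21.4% and 4.86%, against 9.98% over all genes. The housekeeping gene Pgk1 alone supplied 8 of the 30 housekeeping pairs with an H3K4me3 peak and 8 of the 24 with a Sox9 peak. Peaks do not measure expression, so these shares do not show which cell types were sorted.

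Of the 43 genes, 34 had an entry in the RefSeq table of promoters, each 250 bases before to 50 bases after the start; those without were Vcam1, Clu, Krt19, Cd24a, Anxa3, S100a10, Plau, Hbegf and Ccn2. The 5 windows printed here are C3, the gene whose Sox9 peaks at its ends differed most between the times, and the 4 genes with peaks in at least 2 lists of both antibodies together. They are from GRCm38.p6 and are written 5′ to 3′ along the gene's strand, at chr15:32244563-32244862 (plus strand) for Sema5a, chr11:4257318-4257617 (plus) for Lif, chr17:57228087-57228386 (minus) for C3, chr9:69453433-69453732 (plus) for Anxa2 and chr6:72958183-72958482 (minus) for Tmsb10. Capitals mark the bases under a Sox9 peak, which came from 1 library in each case.
Sema5a: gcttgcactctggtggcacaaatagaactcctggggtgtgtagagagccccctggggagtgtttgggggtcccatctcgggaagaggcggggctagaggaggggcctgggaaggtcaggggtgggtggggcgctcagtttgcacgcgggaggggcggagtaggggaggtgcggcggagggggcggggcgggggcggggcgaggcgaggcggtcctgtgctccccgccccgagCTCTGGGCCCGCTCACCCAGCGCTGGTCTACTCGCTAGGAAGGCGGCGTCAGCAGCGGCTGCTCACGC
Lif: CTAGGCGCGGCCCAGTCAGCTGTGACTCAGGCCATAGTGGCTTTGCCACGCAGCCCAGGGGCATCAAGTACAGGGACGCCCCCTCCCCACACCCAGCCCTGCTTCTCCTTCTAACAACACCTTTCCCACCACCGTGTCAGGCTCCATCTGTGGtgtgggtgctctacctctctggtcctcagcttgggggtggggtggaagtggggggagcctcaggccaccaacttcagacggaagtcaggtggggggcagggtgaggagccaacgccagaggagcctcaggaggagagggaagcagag
C3: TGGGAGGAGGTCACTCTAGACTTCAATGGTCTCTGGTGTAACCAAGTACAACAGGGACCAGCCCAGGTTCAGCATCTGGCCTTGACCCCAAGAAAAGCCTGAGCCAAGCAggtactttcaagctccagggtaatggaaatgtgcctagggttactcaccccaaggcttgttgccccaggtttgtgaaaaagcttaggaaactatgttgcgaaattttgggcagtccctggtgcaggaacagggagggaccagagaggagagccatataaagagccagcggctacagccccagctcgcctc
Anxa2: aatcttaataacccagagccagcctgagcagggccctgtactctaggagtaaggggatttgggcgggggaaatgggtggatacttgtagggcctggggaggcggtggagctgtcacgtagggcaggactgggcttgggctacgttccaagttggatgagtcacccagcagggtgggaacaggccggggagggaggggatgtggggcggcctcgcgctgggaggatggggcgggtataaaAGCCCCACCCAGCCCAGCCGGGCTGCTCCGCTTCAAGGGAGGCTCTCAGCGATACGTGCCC
Tmsb10: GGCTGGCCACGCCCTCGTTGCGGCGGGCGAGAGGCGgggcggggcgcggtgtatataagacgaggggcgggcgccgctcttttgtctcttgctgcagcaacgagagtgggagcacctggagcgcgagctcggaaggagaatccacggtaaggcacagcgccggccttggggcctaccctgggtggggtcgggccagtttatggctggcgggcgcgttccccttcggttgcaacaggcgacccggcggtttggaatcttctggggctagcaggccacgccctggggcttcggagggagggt
The Sox9 peak covered 68 of the 300 bases of the Sema5a window (48h replicate 3), 153 in Lif (48h replicate 2), 110 in C3 (10d replicate 4), 61 in Anxa2 (48h replicate 4) and 36 in Tmsb10 (10d replicate 2). H3K4me3 peaks of 3 libraries covered 212 bases of the Sema5a window and all 68 of the bases under its Sox9 peak. In Anxa2 the Sox9 and H3K4me3 peaks, both of libraries labelled 48h replicate 4, lay side by side and shared 0 bases. None of the 5 windows holds ACAAT or its reverse complement ATTGT, a core form of the Sox motif. Forms of the motif without ACAAT were not searched for.

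Over all 43 genes, the mean share with a peak at a gene end lay below that of length-matched genes for both antibodies, by less than the spread between libraries. A Sox9 peak lay at an end of 9.59% ± 6.02 of the 43 genes and of 10.5% ± 5.53 of length-matched genes (SD over libraries, n = 8), a difference of -0.929 ± 1.94 percentage points, and the 43 genes were higher in 2 of 8 libraries. An H3K4me3 peak lay at an end of 16.3% ± 7.46 of the 43 genes and 18.5% ± 10.2 of length-matched genes (SD, n = 8), a difference of -2.23 ± 7.60 points, with the 43 genes higher in 3 of 8 libraries. In the body window the Sox9 shares were 42.2% ± 17.6 and 45.5% ± 17.8, a difference of -3.32 ± 6.15 points, and the H3K4me3 shares were 63.1% ± 13.8 and 62.3% ± 12.8, a difference of 0.781 ± 7.95 points (SD, n = 8). Both differences in the body window were also smaller than the spread between libraries. Without 48h replicate 2, the 1 Sox9 library in which the 43 genes were higher there, the Sox9 difference was -5.30 ± 2.76 points (SD over the other libraries), larger than that spread. That library was picked after its value was seen. Without any other 1 library the difference was -3.62 to -2.39 points, smaller than the spread. The plot of shares by library shows the 43 genes and the length-matched genes moving together from list to list.

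**Figure D1:**
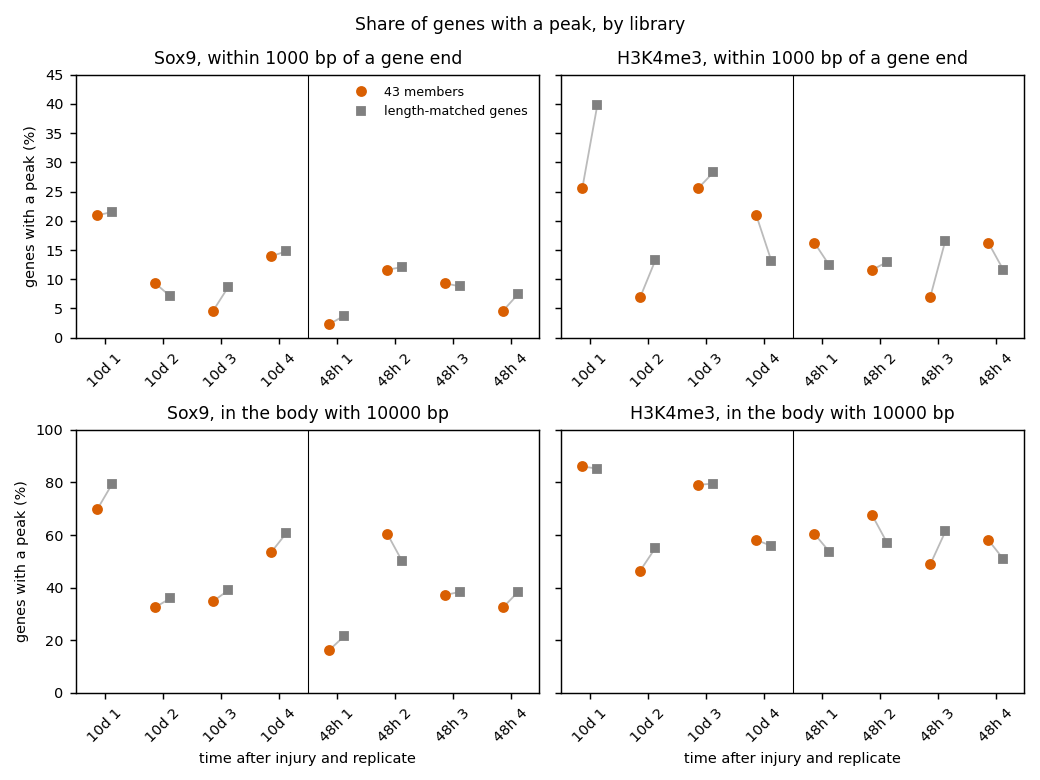
Share of genes with a peak (%) in each of the 8 libraries of an antibody, for the 43 genes (circles) and the length-matched genes (squares), at gene ends (top) and in the body window (bottom), with 10 d libraries left of 48 h libraries. Both shares rise and fall together between libraries, with the 43 genes above the length-matched genes in 2 of 8 Sox9 and 3 of 8 H3K4me3 libraries at gene ends.

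Counted by gene, 17 of 43 had Sox9 at an end in at least 1 of 8 libraries, where the share over all genes was 51.5%, and 2 of 43 (Anxa3 and C3) had it in at least 3, where it was 6.32%. H3K4me3 was at an end of 31 of 43 in at least 1 library, beside 68.3% of all genes, and of 6 of 43 in at least 3 (Sema5a, Cd24a, Lif, Tgfa, Egfr and Ccn1), beside 19.5%. A Sox9 peak of 2 or more steps was at an end of 2 of 43 (Anxa3 and C3, 1 library each), beside 4.4% of all genes, and an H3K4me3 peak of that height at an end of 3 of 43 (Cd24a, Tgfa and Ccn1), beside 19.7%. In H3K4me3 10d replicate 1 alone, 4.65% of the 43 genes and 13.9% of all genes had such a peak, and in the other 7 H3K4me3 libraries at most 4.65% and 4.30%. Peaks of both antibodies were found at the ends of 14 of 43, beside 41.3% of all genes, and of neither at the ends of 9 (Havcr1, Vcam1, Clu, Cp, Cd44, Tpm1, Itgb6, Itgav and Elf3), beside 21.5%. In the body window 39 of 43 had a Sox9 peak in at least 1 library, beside 93.8% of all genes; the 4 without were Spp1, Krt18, Krt20 and S100a6. Every one of the 43 had an H3K4me3 peak in the body window in at least 1 library, beside 96.7% of all genes.

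**Figure D2:**
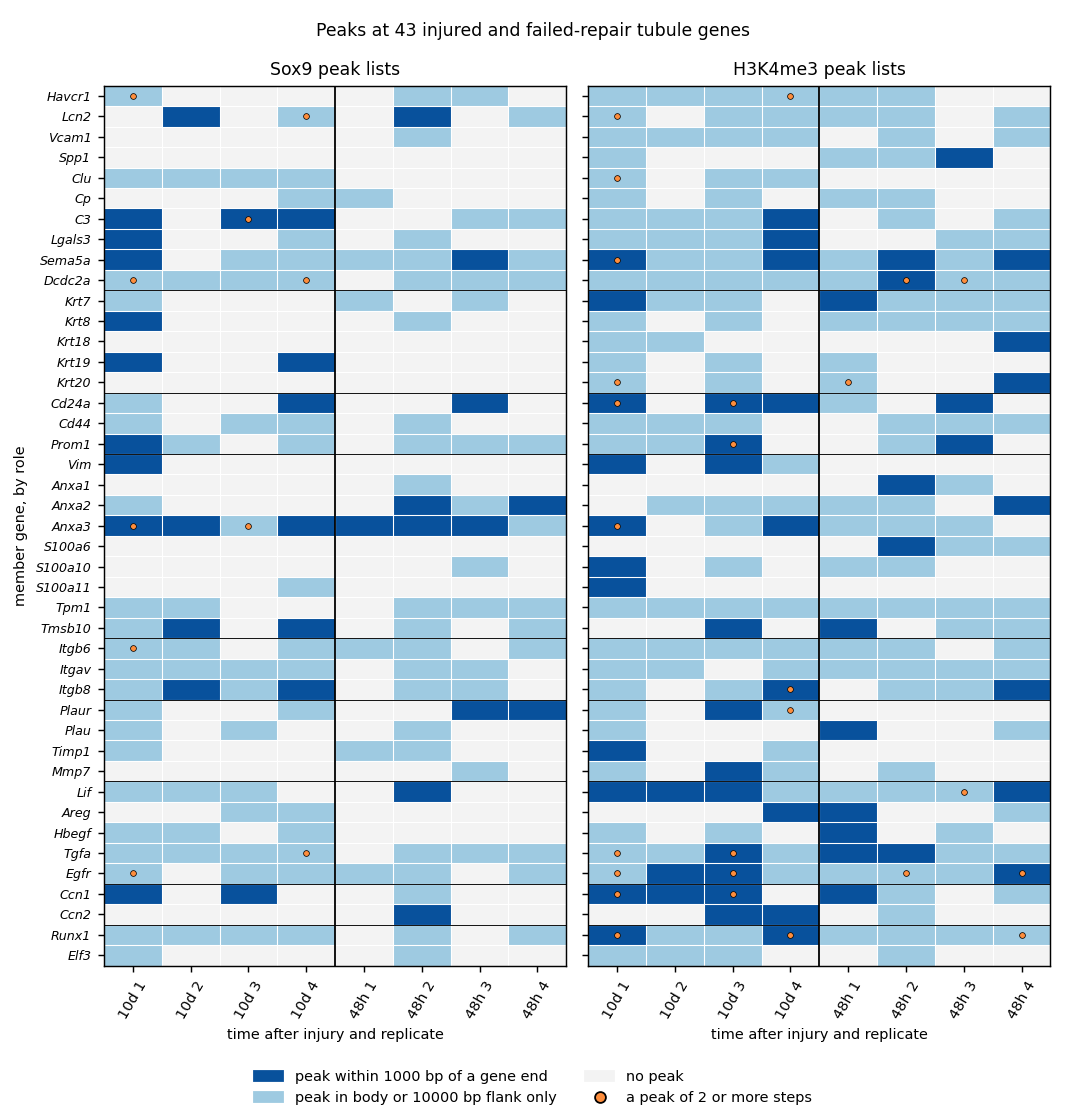
Each row is 1 of the 43 genes, ordered by role, and each column is a library named by time after injury and replicate. Dark blue is a peak within 1000 bp of a gene end, light blue a peak only in the body or its 10000 bp flanks, and orange dots mark a peak of 2 or more steps in the body window; Anxa3 is the only row with a Sox9 peak in all 8 columns.

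In height, width and recurrence the peaks at the 43 genes had values close to those at other genes. The body windows held 276 Sox9 peaks, of which 10 (3.62%) stood at 2 or more steps, beside 3.60% of the Sox9 peaks in the window of any gene. They held 486 H3K4me3 peaks, of which 34 (7.0%) stood at 2 or more steps, beside 5.56%. Median width was 145 bp for these Sox9 peaks and 138 bp for those of any gene, and 135 bp for both sets of H3K4me3 peaks. In 92.8% of cases a Sox9 peak at these genes lay where no other Sox9 library had a peak, beside 91.7% at any gene, and for H3K4me3 the shares were 87.0% and 86.5%. A Sox9 peak overlapped an H3K4me3 peak of any library in 44 of 276 cases (15.9%, beside 14.1% at any gene). In 7 cases (2.54%, beside 2.94%) the H3K4me3 peak came from the library of the same time and replicate number.

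The number of libraries with a peak in the body window is plotted against gene length, beside the mean of genes of the same length. Sema5a, the longest at 451529 bp, had a Sox9 peak in its body window in 7 of 8 libraries and H3K4me3 in 8 of 8, where genes of that length had a Sox9 peak in 89.4% of libraries and H3K4me3 in 98.7%. Tmsb10, the shortest at 1402 bp, had Sox9 in 5 of 8, where genes of that length had it in 29.4%. Of the 7 genes with H3K4me3 in 8 of 8 body windows (12.8% of all genes), Sema5a, Dcdc2a, Tgfa, Egfr and Runx1 are 80707 bp or longer, while Lif spans 14947 bp and Tpm1 27083 bp.

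**Figure D3:**
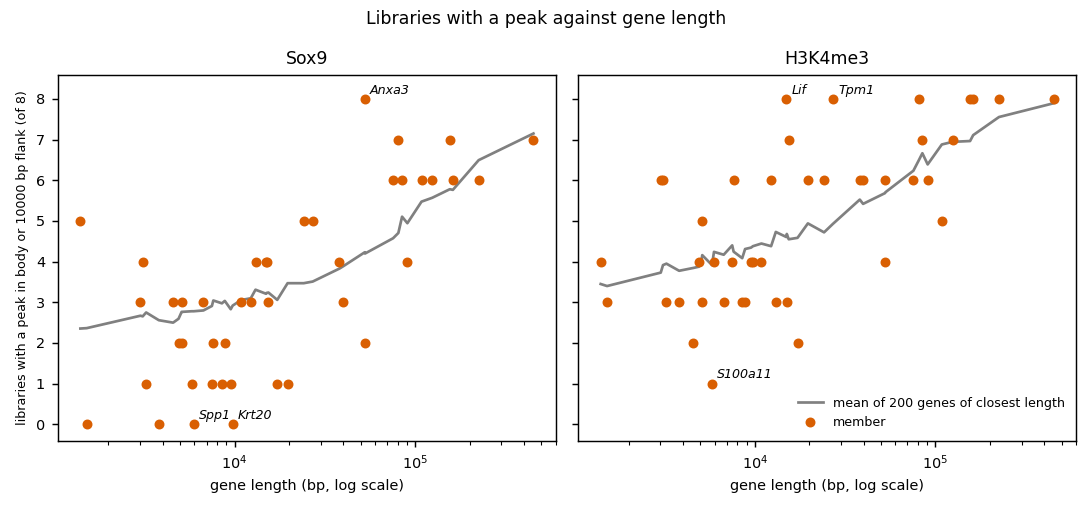
Number of libraries, of 8, with a peak in the body window (vertical) against gene length in bp on a log scale (horizontal), for Sox9 (left) and H3K4me3 (right). Circles are the 43 genes and the line is the mean over the 200 genes closest in length to each; named genes lie furthest from the line, with Anxa3 at 8 of 8 Sox9 libraries where genes of its length had a peak in 52.9% of libraries.

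Anxa3, which encodes a calcium-dependent phospholipid-binding annexin, had the most recurrent Sox9 signal of the 43 genes. The gene lies at chr5:96793385-96845968, and a merged Sox9 region at chr5:96846450-96847475 begins 482 bp beyond its higher-coordinate end, in no other protein-coding gene. Sox9 peaks fell in it in 4 of 4 libraries at 10 d and 4 of 4 at 48 h. It held 9 peaks, of which the 2 of 10d replicate 1 and 10d replicate 3 stood at 2 steps and the other 7 at 1 step. The summits ranged from 96846631 to 96847388, so the region is a chain of overlapping peaks: at most 6 of the 8 libraries covered the same base, over 34 bases from 96846716 to 96846749. Because of the 1000 bp limit only 6 libraries, 3 at each time, counted as a peak at the gene end, and the summits of 10d replicate 3 and 48h replicate 4 lay just outside. Over all genes, 0.311% had Sox9 at an end in 5 or more libraries, and 3.48% had one in the body window in 8 of 8.

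The same position had H3K4me3 peaks in 2 of 8 libraries. Of 215098 merged Sox9 regions in the genome 39 had a peak in 8 of 8 libraries; 35 of these also had an H3K4me3 peak in 8 of 8, and the Anxa3 region was the 1 region with H3K4me3 in at most 2. It was chosen for description after its recurrence was seen, so these counts are a description. The local background at these 9 peaks, solved with the height, was higher than at 95% to 99.5% of the peaks of the same list (median 98.7%), and the authors' fold enrichment was 7.30 to 22.1. The part of that background in the recurrence was not tested.

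**Figure D4:**
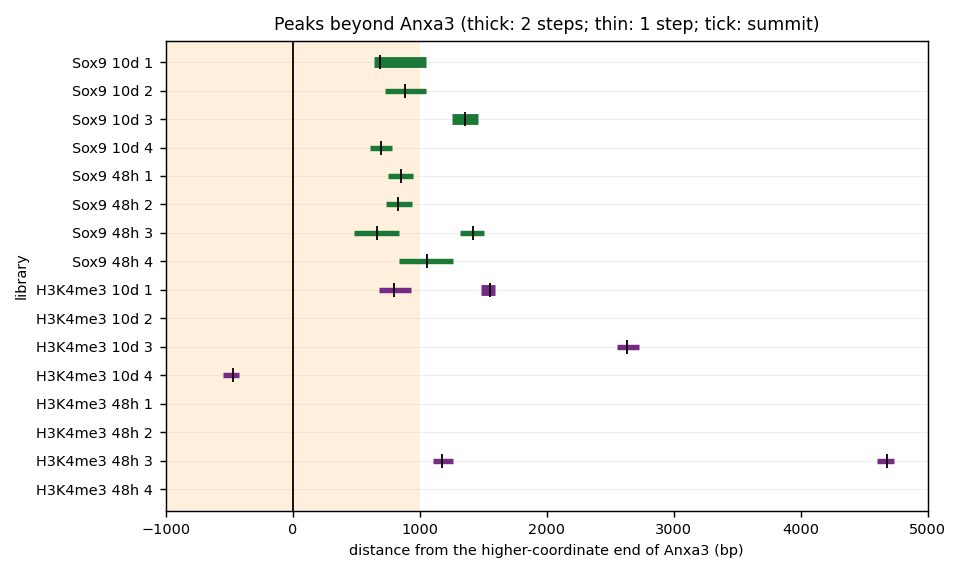
Peaks of the 16 libraries by distance in bp from the higher-coordinate end of Anxa3 (vertical line), with Sox9 in green above H3K4me3 in purple. Bars are peaks (thick, 2 steps; thin, 1 step), ticks are summits and the shaded band is within 1000 bp of the end; each Sox9 library has at least 1 peak in the stretch beyond the end, and H3K4me3 peaks overlap it in 2 libraries.

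Among the injury markers and secreted proteins, Havcr1 had neither Sox9 nor H3K4me3 at its ends in any of the libraries. Its body window held Sox9 peaks in 1 of 4 libraries at 10 d and 2 of 4 at 48 h, and H3K4me3 peaks in 4 of 4 and 2 of 4, where genes of its length had Sox9 in 48.5% and H3K4me3 in 67.8% of libraries. Its tallest Sox9 peak, of 2 steps in 10d replicate 1, had its summit at -5195 bp from the gene's lower-coordinate end. No other library of either antibody had a peak there. Further promoter windows are listed inside Havcr1, at chr11:46750261-46750560 and chr11:46750918-46751217. A Sox9 peak of 48h replicate 3 at chr11:46750701-46750843 lay between them, within 1000 bp of both starts, and overlapped neither window. Lcn2 had Sox9 at an end in 1 of 4 libraries at 10 d and 1 of 4 at 48 h, and no H3K4me3 peak at an end. An H3K4me3 region at chr2:32396076-32396486 had peaks in 3 of 4 libraries at 10 d and 0 of 4 at 48 h, but it lies 8337 bp outside Lcn2 and overlaps Ptges2. At most 2 libraries covered the same base of that region. Vcam1, an adhesion receptor for leukocytes, had neither antibody at an end, and Sox9 in its body window in 0 of 4 libraries at 10 d and 1 of 4 at 48 h. Spp1 (osteopontin, a secreted matrix protein) had no Sox9 peak in its body window, where genes of its length had one in 34.8% of libraries, and H3K4me3 at an end in 0 of 4 libraries at 10 d and 1 of 4 at 48 h.

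C3, the central complement protein, had Sox9 at an end in 3 of 4 libraries at 10 d (replicates 1, 3 and 4) and in 0 of 4 at 48 h. In replicates 1 and 4 the summits lay 465 and 211 bp before the transcription start; in replicate 3 the peak, of 2 steps, lay at the other end of the gene. Sox9 at an end in at least 3 more libraries at 10 d was seen for 1 of 43 genes and for 0.621% of all genes. Over the whole body window C3 had Sox9 peaks in 3 of 4 libraries at 10 d and 2 of 4 at 48 h, with 0.484 ± 0.422 and 0.461 ± 0.597 peaks per 10000 peaks of the list (SD, n = 4 each; two-sided exact permutation test, p = 1). H3K4me3 was at an end of C3 in 1 of 4 libraries at 10 d and 0 of 4 at 48 h.

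Sema5a, a semaphorin guidance protein, had the most recurrent H3K4me3 region of the list, chr15:32244651-32245090, which spans its transcription start and had peaks in 2 of 4 libraries at 10 d and 2 of 4 at 48 h. A further region at chr15:32245781-32246034, 968 bp inside the gene, had H3K4me3 in 1 of 4 and 2 of 4. All 7 of these peaks stood at 1 step. At most 3 libraries covered the same base in each region, over 67 bases in the first and 5 bases in the second. The local background lay between the 86.4 and 95.2 percentiles of the lists in the first region and the 73.9 and 89.5 percentiles in the second. Dcdc2a, a doublecortin-domain gene, had a region 4604 bp outside its lower-coordinate end, chr13:25050443-25050669, with Sox9 in 1 of 4 libraries at 10 d and 2 of 4 at 48 h, and H3K4me3 at nearly the same bases in 1 of 4 and 2 of 4. The local background there was above that of 99.5% to 99.7% of the peaks of the same list, and the authors' fold was 3.58 to 5.42 for Sox9; its part in the peaks was not tested.

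Keratins are intermediate filaments that damaged tubules express. Over the 5 keratins and 8 libraries, 7 of 40 pairs (17.5%) had a Sox9 peak in the body window, beside 36.3% for genes of their length, while H3K4me3 was in 23 of 40 (57.5%), beside 52.8%. Krt8 had Sox9 at an end in 1 of 4 libraries at 10 d and 0 of 4 at 48 h, and 1 of its end windows also overlaps Krt78. Krt18, the partner of Krt8, had no Sox9 peak in its body window and H3K4me3 at an end in 0 of 4 libraries at 10 d and 1 of 4 at 48 h. Krt20 likewise had no Sox9 peak, and its H3K4me3 peaks of 2 or more steps in 10d replicate 1 and 48h replicate 1 lay in the body window only. Krt7 and Krt19 had Sox9 at an end in 0 and 2 of 8 libraries.

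Each group of genes is set beside genes of its length in the plot of shares by role, in which the smaller groups rest on few peaks.

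**Figure D5:**
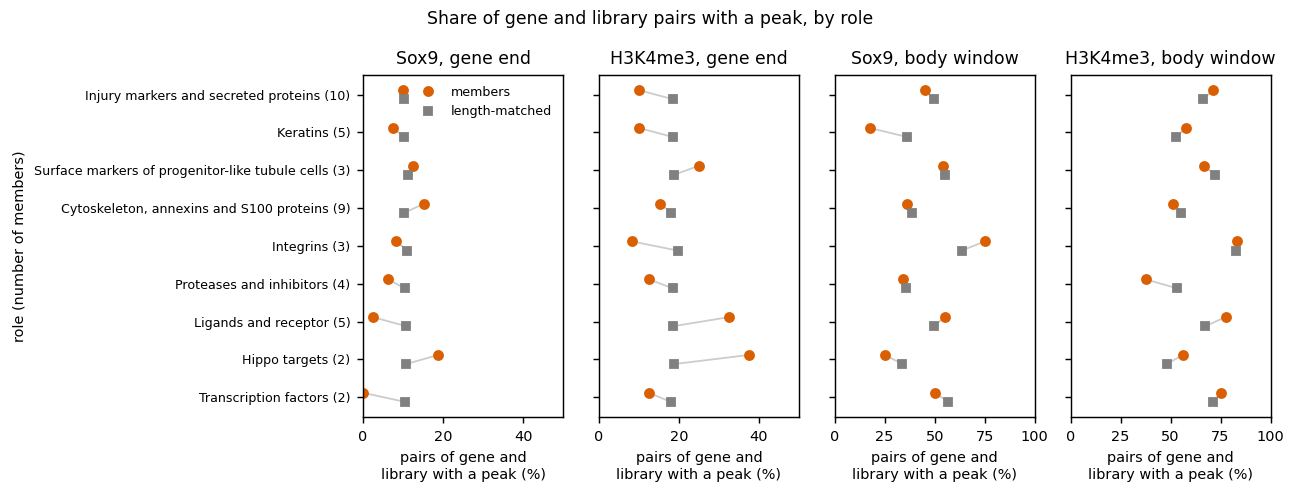
Share of gene and library pairs with a peak (%), by role, for the 43 genes (circles) and their length-matched genes (squares), at gene ends (left pair of panels) and in the body window (right pair). Keratins have 17.5% against 36.3% for Sox9 in the body window, ligands with their receptor have 2.50% against 10.7% for Sox9 and 32.5% against 18.6% for H3K4me3 at gene ends, and the 2 Hippo targets have 37.5% against 18.8% for H3K4me3 there.

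Of the surface markers, Cd24a had H3K4me3 at an end in 3 of 4 libraries at 10 d and 1 of 4 at 48 h. In 10d replicate 1 those peaks stood at 2 and 3 steps, and in 10d replicate 3 at 2 steps, and Sox9 was at an end in 1 of 4 and 1 of 4. Prom1 (CD133) had Sox9 at an end in 1 of 4 libraries at 10 d and 0 of 4 at 48 h. Cd44, the hyaluronan receptor, had neither antibody at an end and Sox9 in its body window in 3 of 4 and 1 of 4. Cytoskeletal, annexin and S100 genes had Sox9 at an end in 11 of 72 pairs (15.3%, beside 10.3% for genes of their length), and 6 of the 11 were Anxa3. Of the others Anxa2 had 2 at 48 h, Tmsb10 (thymosin beta 10, which binds actin monomers) had 2 at 10 d and Vim (vimentin) had 1 at 10 d. Anxa1, S100a6, S100a10, S100a11 and Tpm1 had none.

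Integrins had Sox9 in the body window in 18 of 24 pairs (75.0%, beside 63.5%) and H3K4me3 in 20 of 24 (83.3%, beside 82.7%). Itgb6, the epithelial beta subunit that activates latent TGF-beta together with Itgav, had no peak at an end, and in its body window Sox9 was present in 3 of 4 libraries at 10 d and 3 of 4 at 48 h. Itgav also had none at an end, but its listed transcription start lies 2094 bp inside the gene limits used. A Sox9 peak overlapped the promoter window there in 0 of 4 libraries at 10 d and 1 of 4 at 48 h. Just beyond that window a Sox9 region at chr2:83724539-83724690, 2236 bp inside the gene, had peaks in 1 of 4 and 1 of 4. Of the 34 genes with a listed start, Plaur was the other one with every start over 1000 bp from the limit. Itgb8 had Sox9 at an end in 2 of 4 libraries at 10 d and 0 of 4 at 48 h. Of the plasminogen activator system, Plaur (the urokinase receptor) had Sox9 at an end in 0 of 4 libraries at 10 d and 2 of 4 at 48 h, and Plau (urokinase) had none. Neither Timp1, a metalloproteinase inhibitor, nor Mmp7, the protease matrilysin, had Sox9 at an end, and a region inside Mmp7 at chr9:7697074-7697248 had H3K4me3 in 2 of 4 libraries at 10 d and 1 of 4 at 48 h.

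Ligands and the EGF receptor had H3K4me3 at an end in 13 of 40 pairs (32.5%, beside 18.6% for genes of their length) and Sox9 in 1 of 40 (2.50%, beside 10.7%). The 1 pair was Lif, an interleukin-6 family cytokine, in 48h replicate 2. Lif had H3K4me3 at an end in 3 of 4 libraries at 10 d and 1 of 4 at 48 h, and in its body window in 8 of 8. Tgfa is a membrane-anchored EGF receptor ligand with an H3K4me3 peak of 2 steps 141 bp inside its lower-coordinate end at 10 d. It had H3K4me3 at an end in 1 of 4 libraries at 10 d and 2 of 4 at 48 h. Areg (amphiregulin) had it in 1 of 4 and 1 of 4, and Hbegf in 0 of 4 and 1 of 4. With 5 genes these shares rest on few peaks, and no test was made over the group.

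Egfr, the receptor of these ligands, had H3K4me3 at an end in 2 of 4 libraries at 10 d and 1 of 4 at 48 h, and no Sox9 peak at an end. In its body window H3K4me3 was present in 8 of 8 libraries and reached 2 or more steps in 4, and 7 of 43 genes, beside 13.5% of all genes, had such peaks in 2 or more libraries. These peaks were gathered near the end of the gene that lies opposite its start, a pattern chosen after it was seen. The last 20000 bp of Egfr held 16 of its 37 H3K4me3 peaks, or 8 per 10000 bp, and 8 of its 9 peaks of 2 or more steps, against 1.30 per 10000 bp in the rest of the window. Those 16 peaks came from 2 of 4 libraries at 10 d and 4 of 4 at 48 h. Regions at chr11:16896906-16897080 and chr11:16911560-16911847 recurred in 0 of 4 and 3 of 4, and in 1 of 4 and 2 of 4 libraries. Their local background lay between the 0.0271 and 72.4 percentiles of the lists, lower than at the Anxa3 and Dcdc2a regions. Sox9 had 5 of its 18 Egfr peaks in the same 20000 bp, all of 1 step.

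The Hippo targets Ccn1 (CYR61) and Ccn2 (CTGF), matricellular proteins induced by YAP, had H3K4me3 at an end in 6 of 16 pairs (37.5%, beside 18.8%) and Sox9 in 3 of 16 (18.8%, beside 10.8%). For Ccn1 Sox9 was at an end in 2 of 4 libraries at 10 d and 0 of 4 at 48 h, and H3K4me3 in 3 of 4 and 1 of 4. For Ccn2 Sox9 was at an end in 0 of 4 and 1 of 4, and H3K4me3 in 2 of 4 and 0 of 4. Of the transcription factors, Runx1 had no Sox9 peak at an end, with H3K4me3 at an end in 2 of 4 libraries at 10 d and 0 of 4 at 48 h. Runx1 spans 224609 bp, and its body window held 24 Sox9 and 53 H3K4me3 peaks; the most recurrent region, chr16:92605636-92605866, had H3K4me3 in 2 of 4 and 1 of 4. Elf3, an epithelial ETS factor, had neither antibody at an end.

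Between the times, the mean share of the 43 genes with a peak was higher at 10 d, as was that of length-matched genes, and the libraries of both times overlapped. A Sox9 peak lay at an end of 12.2% ± 6.94 of the 43 genes at 10 d and 6.98% ± 4.25 at 48 h, and of 13% ± 6.56 and 8.03% ± 3.44 of length-matched genes (SD, n = 4 each). Relative to length-matched genes the 43 genes stood at -0.805 ± 2.57 points at 10 d and -1.05 ± 1.44 at 48 h, a change of 0.247 points. For H3K4me3 at gene ends the 43 genes stood at 19.8% ± 8.80 at 10 d and 12.8% ± 4.45 at 48 h, which is -3.87 ± 9.16 and -0.599 ± 6.60 points relative to length-matched genes (SD, n = 4 each). In 10d replicate 1 the H3K4me3 difference was -14.3 points and in 10d replicate 4 it was 7.80, and the libraries of the 2 times overlapped. Sox9 at an end in 4 of 4 libraries at 10 d and 0 of 4 at 48 h, or the reverse, was seen for 0 of 43 genes (0.0183% and 0.00457% of all genes), and the same for H3K4me3 for 0 of 43 (0.224% and 0.0137%).

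In the body window Sox9 was present in 47.7% ± 17.5 of the 43 genes at 10 d and 36.6% ± 18.3 at 48 h, or -6.14 ± 2.95 and -0.497 ± 7.64 points relative to length-matched genes (SD, n = 4 each). All 4 libraries at 10 d were below length-matched genes, from -9.79 to -3.42 points, and so were 3 of 4 at 48 h, while 48h replicate 2 was above them by 10.5 points. Sox9 peaks of 2 or more steps were present in 5, 0, 2 and 3 of the 43 body windows in 10d replicates 1 to 4, and in 0 in each of the 48 h libraries. Length-matched genes had such peaks in 4.70% ± 4.49 at 10 d and 1.61% ± 1.01 at 48 h (SD, n = 4 each). The 43 genes stood at 1.12 ± 1.86 points and -1.61 ± 1.01 points relative to them, and the libraries of both times overlapped. H3K4me3 in the body window stood at -1.48 ± 4.88 points at 10 d and 3.04 ± 10.5 points at 48 h. No p-value was computed over the list.

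Gene by gene, no difference between the times passed after adjustment. A gene could pass only if most genes tested reached the smallest possible p, so the adjusted test cannot decide on single genes. With 4 libraries against 4 there are 70 arrangements, so the smallest exact permutation p is 0.0286, and after Benjamini-Hochberg adjustment over all 20534 genes with a Sox9 peak, or all 21171 with an H3K4me3 peak, 0 genes passed and the smallest adjusted p was 1. At an unadjusted p under 0.05, 182 genes (0.886%) had more Sox9 peaks at 10 d and 142 (0.692%) fewer, and 1 of the 39 tested genes of the list was among them (0 to 2 without 1 library). For H3K4me3 262 genes (1.24%) were higher at 10 d and 163 (0.77%) lower, with 0 of 43 from the list (0 to 3 without 1 library, the 3 being Clu, Vim and Plaur without 10d replicate 2). Of the 43 genes 19 had more Sox9 peaks per 10000 list peaks at 10 d and 20 fewer, while 52.0% of all genes tested had more.

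That gene was Clu, which encodes clusterin, a secreted chaperone. It had 0.234, 0.676, 0.575 and 0.252 Sox9 peaks per 10000 list peaks in 10d replicates 1 to 4, and 0 in each of the 4 libraries at 48 h. The times did not overlap, with a mean of 0.434 ± 0.225 at 10 d and 0 at 48 h (SD, n = 4 each; two-sided exact permutation test, p = 0.0286, adjusted p = 1). The exact permutation p was also 0.0286 without any 1 library of 10 d, and 0.0571 without any 1 library of 48 h. The 5 peaks behind these values all stood at 1 step, none overlapped another, and they were spread over the gene at chr14:65968483-65981548 and its flank, with none at an end. A Sox9 peak in 4 of 4 body windows at 10 d and 0 of 4 at 48 h was seen for 1 of 43 genes and for 0.667% of all genes. H3K4me3 in the Clu body window was present in 3 of 4 libraries at 10 d and 0 of 4 at 48 h (two-sided exact permutation test, p = 0.143, adjusted p = 1). Hbegf was the other gene with Sox9 in at least 3 more body windows at 10 d (3 of 4, against 0 of 4 at 48 h), where the share over all genes was 5.68%. H3K4me3 was in at least 3 more body windows at 10 d for Clu, Vim and Plaur (3 of 43, beside 4.87% of all genes) and in 3 fewer for S100a6 (1 of 43, beside 0.407%). For Plaur, an H3K4me3 region at chr7:24481815-24482100 had peaks in 2 of 4 libraries at 10 d and 0 of 4 at 48 h. It lies 5845 bp outside Plaur and overlaps Cadm4. The body window of Clu also overlaps Gulo, and that of S100a6 overlaps S100a4 and S100a5.

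Other genes of the same pathways were counted in the same way. Of 27 other failed-repair genes, including chemokines, NF-kB subunits and Cdkn1a, 15 had Sox9 at an end in at least 1 library. Over all genes that share was 51.5% for Sox9 and 68.3% for H3K4me3. By gene and library pairs, 8.80% had Sox9 at an end, beside 10.5% for genes of their length. In the body window Sox9 was in 51.9% of pairs, beside 45%. Tnfrsf12a, the TWEAK receptor, had the most, in 3 of 4 libraries at 10 d and 1 of 4 at 48 h. Of 19 other genes of the EGF receptor pathway 9 had Sox9 at an end, in 12.5% of pairs, beside 10.9%, and Etv5, an ETS factor downstream of the receptor, had it in 2 of 4 and 3 of 4 libraries. Of 13 other Hippo targets 9 had Sox9 at an end (15.4% of pairs, beside 11%), where 51.5% of all genes had it. For H3K4me3 it was 11 of 13 (30.8% of pairs, beside 18.9%), where 68.3% of all genes had it. In that list Crim1 had H3K4me3 at an end in 3 of 4 libraries at 10 d and 3 of 4 at 48 h. Over all genes tested, 1.58% had an unadjusted p under 0.05 between the times for Sox9 and 2.01% for H3K4me3 (two-sided exact permutation test). Of the 59 genes of these lists, 0 had such a p for Sox9. For H3K4me3 it was 2 of 59: Fosl2, an AP-1 subunit, with 0.607 ± 0.237 peaks per 10000 list peaks at 10 d and 0.0969 ± 0.194 at 48 h, and Relb, an NF-kB subunit, with 0.199 ± 0.162 and 0.693 ± 0.223 (SD, n = 4 each; two-sided exact permutation tests, p = 0.0286, adjusted p = 1).

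Promoter windows were compared with those of all genes by base content, as a description. Of the 34 with a sequence, 11 (32.4%) had a ratio of observed over expected CpG above 0.6, beside 48.3% of 17491 genes, and the median GC content was 58.5%, beside 56.3%. H3K4me3 peaks overlapped these windows in 9 of 272 gene and library pairs (3.31%), beside 7.09% over all genes. By CpG class the shares were 7.95% for the 11 CpG-rich windows, beside 11.7% over all such genes, and 1.09% for the other 23, beside 2.77%. Sox9 peaks overlapped them in 7 of 272 pairs (2.57%), beside 3.15%, and by CpG class in 3.41%, beside 4.89% for CpG-rich windows, and in 2.17%, beside 1.53%, for the others. The letters ACAAT, on either strand, stood in 6 of 34 windows (17.6%), beside 28.5% of all promoters of the same length, and ACAATGG, which contains them, in 0 of 34, beside 2.94%. The 6 genes with ACAAT were Havcr1, Cp, Itgb6, Mmp7, Timp1 and Elf3. Base content and motifs were read from the first window listed for a gene, and peaks from all its windows; with all windows, a count added after the values were seen, Tmsb10 also held ACAAT, which gives 7 of 34 (20.6%), beside 31.3% of all genes.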

How the data were processed

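Sox9 and H3K4me3 were mapped by CUT&RUN, in which an antibody directs a nuclease to cut around its target, in tdTomato-positive kidney cells at 10 d and 48 h after injury (4 libraries per antibody and time). Per the peak names in the files, each library was called against its own input; the 8 inputs were not analysed here. Partek 10, Bowtie, Bowtie2, MACS3 and mm10 are named in the submitters' processing notes, and filters, duplicate removal, scaling and the peak threshold are not given in the sources used here. The fold in the deposited lists is a ratio of antibody to background pileup made by the authors' caller. Its p-values and q-values are −log10 values in the deposited lists. The deposited score is a display value and was not used.

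Pileup and background were solved from fold and p for each peak, assuming that the fold has 1 added to both and that p is a Poisson tail; 99.6% to 100% of pileups were whole multiples of the list's step within 0.05. A peak belonged to a gene by its summit. Shares of genes with a peak were compared with the 200 protein-coding genes closest in length to each gene (7118 in all), as a description over libraries with no test. Times were compared for each gene by a two-sided exact permutation test of peaks per 10000 list peaks in the body window, adjusted over all genes by the Benjamini-Hochberg method. The p-values measure the spread between libraries labelled biological replicates, and depth is unknown, so precision rests on the 4 libraries of a group. Gene positions and promoters are from RefSeq, GRCm38.p6; strand is known for the 34 genes with a promoter entry. Merged regions are peaks of an antibody that overlap by at least 1 bp. At most 13 intervals were identical between any 2 lists.

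Replicate numbers were not used to pair libraries across the times in the main comparison. Deviations of the same number correlated between -0.0110 and 0.0251 across the times. Sox9 and H3K4me3 libraries of the same number and time correlated between -0.00524 and 0.0397. This measure therefore cannot tell whether the numbers pair libraries. The 43 genes, their roles and the companion lists were chosen with earlier results of these data known. Named individually were 11 genes set in advance (Havcr1, Vcam1, Lcn2, Spp1, Krt8, Krt18, Egfr, Itgb6, Ccn1, Ccn2 and Runx1), genes with an end peak in at least 3 libraries, a peak of 2 or more steps at an end or in at least 2 body windows, a difference of at least 3 libraries between times, or p under 0.05. Other genes are named for their role or as having no peak, after their values were seen. Alternatives were a q-value filter, 2 or more steps, other windows, interval overlap, equal list lengths, other matching, leaving out libraries and a replicate block. SciPy 1.17.1, pandas 2.3.3, NumPy 2.4.6 and Matplotlib 3.10.9 were run under Python 3.11.15, and the scripts were tested on simulated data.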

Additional observations from a re-analysis of the deposited data

Results flagged for a closer look

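H3K4me3 48h replicate 3 lay far from the other 48 h libraries in the body window. There the share of the 43 genes with a peak, minus that of length-matched genes, was -12.5 percentage points, against 6.79, 7.27 and 10.6 points in the other 3 libraries. Its gap to the nearest library was 0.835 of the range of the 4, above Dixon's 95% critical value. This was the only one of 16 such values that passed, and chance passes about 1 in 20 groups.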

How the results depend on the processing

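The 4 mean differences between the 43 genes and length-matched genes stayed smaller than the spread between libraries under every setting tried, except for Sox9 in the body window without 48h replicate 2, at -5.30 ± 2.76 points (SD). Leaving out 1 library gave -1.38 to -0.482 points for Sox9 at ends, -3.67 to -0.513 for H3K4me3 at ends, -5.30 to -2.39 for Sox9 in the body window and -0.623 to 2.68 for H3K4me3 there. The difference 10 d minus 48 h, relative to length-matched genes, depended on the window: for Sox9 at ends it was -3.42 points with 3000 bp windows and 3.44 at transcription starts alone (0.247 as reported), and for Sox9 in the body window it was 2.73 points with peaks of 2 or more steps (-5.64 as reported); the cause was not tested. Without 1 library the ranges of these changes were -0.766 to 1.33 and -7.46 to -1.97 points for Sox9, and -7.16 to 0.200 and -9.70 to -2.0 for H3K4me3.

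Genes with end peaks in 4 of 4 libraries of a time and 0 of 4 of the other numbered 5 for Sox9 and 52 for H3K4me3, and depended on the lists. The Sox9 number was 0 with peaks of 2 or more steps, 42 with 3000 bp windows, 8 by interval overlap, 0.318 at equal list lengths and 9 to 61 without 1 library. For H3K4me3 it was 0, 115 with 3000 bp windows, 9.88 at equal list lengths and 74 to 225 without 1 library. The values at equal list lengths are fractional and are not counts of observed genes. Genes with p under 0.05 numbered 324 for Sox9 (2 with 2 or more steps, 174 without flanks, 284 to 529 without 1 library) and 425 for H3K4me3 (6, 279, and 410 to 561). Of the list, Clu was among the Sox9 genes without any 1 library of 10 d and not without any 1 of 48 h; Hbegf joined it without 10d replicate 3, and Anxa2, lower at 10 d, was called without 48h replicate 1. With a replicate block both numbers were 0, since 4 pairs allow no p below 0.125. Whether replicate numbers pair the libraries is not known. Equal list lengths were not run for the per-gene test, whose values are already per list length. Unknown depth and heights of 1 step limit all presence calls.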

Other observations

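Lists of other kidney cell types were counted at gene ends in the same libraries, with no test. Sox9 peaks lay at ends in 9.09% of gene and library pairs for 11 genes of the loop, distal nephron and duct, 7.81% for 8 podocyte and parietal genes, 11.3% for 10 endothelial genes, 8.75% for 10 stromal and mural genes and 5.00% for 10 immune genes. For H3K4me3 the shares were 14.8%, 20.3%, 16.3%, 10.0% and 5.00%. Over all genes they were 9.98% for Sox9 and 17.3% for H3K4me3. For genes of the same length as each list, in the same order, the Sox9 shares were 10.4%, 10.9%, 11.2%, 10.3% and 10.5%. The H3K4me3 shares of those genes were 18.4%, 19.2%, 19.1%, 18.9% and 18.1%. Flt1, a VEGF receptor of endothelium, had Sox9 at an end in 2 of 4 libraries at 10 d and 2 of 4 at 48 h, and Aqp2, the collecting duct water channel, had H3K4me3 in 1 of 4 and 2 of 4. Pgk1, a glycolytic enzyme counted among the housekeeping genes, had both antibodies at an end in 8 of 8 libraries, at 2 or more steps in each.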
